A study of Mus musculus with 9 samples.

Results

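A set of 10 genes of epithelial cells, chosen by name with earlier results of these data known, was followed in mouse epiblast stem cells: the keratin genes Krt7, Krt8, Krt18 and Krt19, the claudin genes Cldn4, Cldn6 and Cldn7, the protease gene Prss8, and the transcription factor genes Grhl3 and Tfap2c. All probes carrying one of these 10 of 28908 symbols were taken, which gave 15 of the 45281 probes on the array. Current symbols named 11 of them, and the other 4 (3 for Tfap2c under Tcfap2c and 1 for Krt8 under Krt2-8) were reached through older symbols. Of the 15 probes, 14 passed the filter, which asked for detection (p below 0.05) on 3 or more of the 9 arrays. The probe left out was a second Krt8 probe, which was detected on 0 of 9 arrays.

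The cells were male epiblast stem cells (EpiSCs) of a 129 background, pluripotent cells that resemble the epiblast of the implanted embryo. All of them carried dsRed2, a red fluorescent protein, and were grown with activin A at 20 ng/ml and bFGF at 10 ng/ml. One group was sorted for dsRed2 fluorescence, another for its absence, and the last was exposed to 3 µM CHIRON for 48 h, with 3 replicates in each of the 3 groups, called biological in the design text. CHIRON usually stands for CHIR99021, which blocks the kinase GSK3 and so turns on Wnt/β-catenin signals, and the labels give no other name. The labels name neither the element that drives dsRed2 nor the clone, and whether treated cells passed through the sorter is not clear from them, so treatment and sorting cannot be told apart. Nothing in the labels says that the replicates were separate cultures, so p-values measure only the spread between these samples, which may be technical.

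Keratins are the intermediate filament proteins of epithelial cells. Each filament pairs a type II keratin, such as Krt7 or Krt8, with a type I keratin, such as Krt18 or Krt19, and Krt8 with Krt18 is the first pair made in the mouse embryo. Claudins span the membrane and form the strands of tight junctions, and Cldn4, Cldn6 and Cldn7 belong to embryonic and simple epithelia. Prss8 encodes prostasin, a serine protease anchored to the surface of epithelial cells. Grhl3 is a grainyhead-like factor of surface ectoderm and epidermis, and Tfap2c encodes AP-2γ, a factor of trophoblast, surface ectoderm and germ cell precursors. The epiblast is itself an epithelium, whose cells lose that organisation as they pass through the primitive streak, where Wnt signals act.

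Krt7, Krt8 and Krt18 lie on chromosome 15, and in RefSeq (GRCm38.p6) Krt8 and Krt18 are adjacent protein-coding genes on opposite strands. Their promoter windows, 250 bases before to 50 bases after the annotated start, are shown because these keratins carry the main result below. Capitals mark GCCNNNGGC, the palindrome bound by AP-2 factors, in the windows of Krt7 and Krt18, and TATAAA read on either strand in the window of Krt8. The windows are chr15:101412153-101412452 on the plus strand for Krt7, chr15:102004293-102004592 on the minus strand for Krt8 and chr15:102027966-102028265 on the plus strand for Krt18.
Krt7: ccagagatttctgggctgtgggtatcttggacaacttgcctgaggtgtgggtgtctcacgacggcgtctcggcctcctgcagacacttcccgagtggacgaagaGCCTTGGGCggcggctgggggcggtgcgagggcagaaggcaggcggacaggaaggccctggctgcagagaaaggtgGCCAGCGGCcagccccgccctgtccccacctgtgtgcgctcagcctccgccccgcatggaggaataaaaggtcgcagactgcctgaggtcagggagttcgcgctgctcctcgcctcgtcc
Krt8: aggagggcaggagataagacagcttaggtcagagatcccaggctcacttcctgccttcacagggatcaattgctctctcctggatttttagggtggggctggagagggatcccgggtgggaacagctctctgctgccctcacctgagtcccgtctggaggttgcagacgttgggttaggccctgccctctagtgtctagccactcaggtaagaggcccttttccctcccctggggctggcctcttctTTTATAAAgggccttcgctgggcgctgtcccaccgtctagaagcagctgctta
Krt18: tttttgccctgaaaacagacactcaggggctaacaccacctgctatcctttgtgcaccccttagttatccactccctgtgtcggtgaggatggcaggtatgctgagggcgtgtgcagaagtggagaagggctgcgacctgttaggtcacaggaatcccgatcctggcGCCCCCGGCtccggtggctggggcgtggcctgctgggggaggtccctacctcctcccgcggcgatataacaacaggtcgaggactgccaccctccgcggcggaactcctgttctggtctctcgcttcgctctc

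The AP-2 letters stood in the Krt7 window at −146 (GCCTTGGGC) and −70 (GCCAGCGGC) and in the Krt18 window at −83 (GCCCCCGGC), counted from the annotated start to the first base of the match. On either strand 16.6% of 32851 RefSeq windows of the same length held them. The TATAAA letters, a search added after the windows had been looked at, occurred in 13.6% of windows, and in that of Krt8 the matches on the 2 strands overlap. Those matches begin at −3 and −1 and so lie across the annotated start. RefSeq windows were at hand for 7 of the 10 genes (Krt7, Krt8, Krt18, Cldn4, Cldn6, Cldn7 with 2 windows, and Grhl3), and 2 of these genes held the AP-2 letters. The grainyhead-like letters AACCGGTT, present in 0.146% of all windows, and the TCF/LEF letters ATCAAAG, present in 3.73%, were in 0 of the 8 windows on either strand. The 8 windows had a median GC content of 59.7%, against 52.7% over all windows, with 66.3% in Krt7, 58% in Krt8 and 61.3% in Krt18. A match is a description of letters and not of a bound site.

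Median probe signals lay between 95.1 and 109 per array, and 36.7% to 41.1% of probes were detected. The number of arrays limits the precision. Treated replicates 1 and 2 lay close together, with an SD of their log2 difference of 0.125 over 1812 bright probes. Other pairs within a group gave 0.203 to 0.349, and the 2 treated arrays shared 0 identical signals among these probes. Of 10 epiblast stem cell markers 8 to 9 were detected on every array, and after CHIRON 4 of 9 tested fell and 3 rose against negative cells (median −0.96). Over all probes 19.9% were called lower and 19.5% higher, with a median of −0.01. Nanog fell by 3.46, Utf1 by 3.64, Pou5f1 by 1.84 and Sox2 by 0.96, while Fgf5 rose by 1.83 and Otx2 by 1.22. The call of Otx2 (adjusted p = 0.0306) was lost without negative replicate 2 or 3 or treated replicate 1 or 2. The treated arrays thus hold the label's markers at other levels than the sorted ones. Values below are log2 normalized signals, given in the order of replicates 1, 2 and 3, and errors of differences are standard errors. A difference is called where limma's adjusted p, over 19074 probes, is below 0.05. Sizes and lower bounds of folds are on the background-corrected scale. Without that correction, and in the deposited values, differences of probes near background were smaller, and such values are given beside many of the genes concerned.

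Between the 2 sorts none of these genes was called, and after CHIRON Krt7, Krt8, Krt18, Cldn6 and both transcription factor genes rose while Prss8 fell. The call of Krt18 against negative cells was lost under 11 of 19 alternatives. In positive against negative cells 0 of 14 probes were called, as were 0 of 19074 probes in all (0%). Of the 14, 13 had the lower mean in positive cells, with a median difference of −0.20 beside 0.01 over all probes. By gene it was 9 of 10. Among the 13, the differences of Krt7, Krt19 and both Prss8 probes changed sign under some alternatives. After CHIRON 8 of the 14 probes were called higher than in negative cells and 2 lower, where 39.4% of all probes were called, 19.5% higher and 19.9% lower. The 8 probes belong to Krt7, Krt8, Krt18, Cldn6, Grhl3 and Tfap2c, and the 2 probes to Prss8. One of the 8, Grhl3 probe ILMN_2971031, was detected on treated arrays alone and so could pass the filter only by being higher there, and the count is given as a description. The genes were also chosen with earlier results of these data known, so counts set beside shares of all probes are no test of the set. Krt19, Cldn4 and Cldn7 were not called. In bulk samples a change in the share of cells of a type and a change in RNA per cell cannot be told apart.

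**Figure D1:**
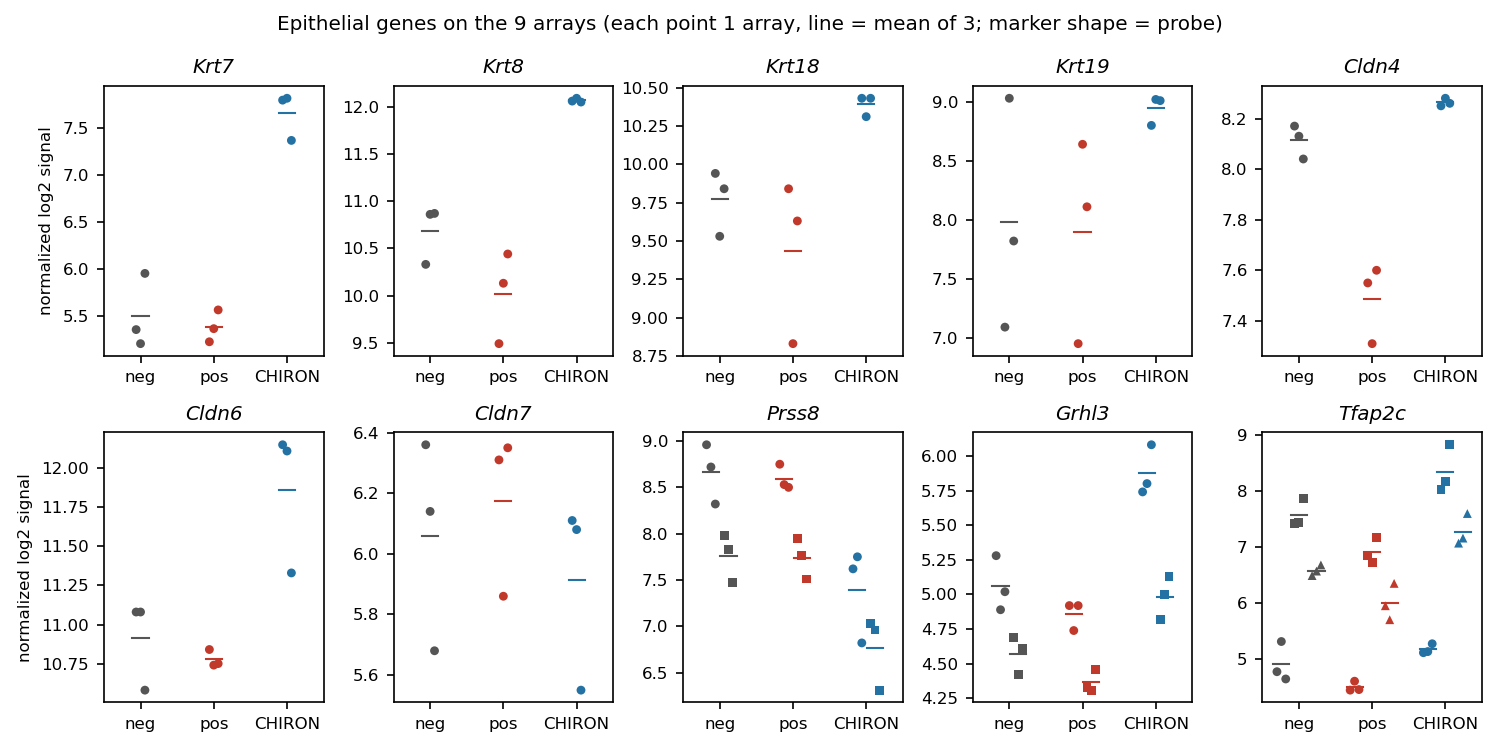
Normalized log2 signal (vertical axis, a separate scale for each gene) on each array of dsRed2 negative (neg), dsRed2 positive (pos) and CHIRON-treated (CHIRON) cells. Each point is 1 array, each line the mean of 3, and the marker shapes separate the probes of a gene in the order of their probe numbers. Krt7 and Krt8 stand higher and Prss8 lower on the 3 treated arrays than on the 6 sorted ones.

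Among the keratins Krt7 had the largest difference after CHIRON. Krt7 was at 5.22, 5.36 and 5.56 in positive cells, 5.35, 5.20 and 5.95 in negative cells and 7.80, 7.82 and 7.37 after CHIRON. The sorts overlapped, and all 3 treated arrays lay above all 6 sorted arrays. Krt7 rose by 2.16 ± 0.20 over negative cells (4.47-fold, adjusted p = 2.11e-05) and by 2.28 ± 0.20 over positive cells (adjusted p = 1.42e-05). Without background correction the rises were 1.16 and 1.21, still called. Between the sorts it differed by −0.12 ± 0.20 (95% interval −0.57 to 0.33).

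Krt8 was at 9.49, 10.13 and 10.44 in positive cells, 10.33, 10.86 and 10.87 in negative cells and 12.06, 12.09 and 12.05 after CHIRON. The treated arrays lay above all sorted arrays and within 0.04 of one another, and the sorts overlapped because positive replicate 3 exceeded negative replicate 1. Krt8 rose by 1.38 ± 0.23 over negative cells (2.6-fold, adjusted p = 0.000683) and by 2.05 ± 0.23 over positive cells (4.14-fold, adjusted p = 5.47e-05). Positive cells were lower in 3 of 3 same-numbered pairs, by −0.85, −0.73 and −0.43, a mean of −0.67 ± 0.23 in the 9-array fit and ± 0.12 in the paired fit. Neither fit called it over all probes (limma, unadjusted p = 0.0126 and 0.000461), and the paired fit of the deposited values did (adjusted p = 0.0183). The second Krt8 probe stayed between 4.21 and 4.49 on all arrays and was not detected.

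Krt18, the usual partner of Krt8, was at 9.84, 8.83 and 9.63 in positive cells, 9.94, 9.53 and 9.84 in negative cells and 10.43, 10.31 and 10.43 after CHIRON. Here too every treated array exceeded every sorted array. Over negative cells Krt18 rose by 0.62 ± 0.23 (1.54-fold, adjusted p = 0.0489), a call that was lost under 11 of 19 alternatives with adjusted p between 0.00639 and 0.149. The losses include leaving out positive replicate 3, any 1 negative or any 1 treated array. Against positive cells the rise was 0.96 ± 0.23 (adjusted p = 0.0062). Positive cells differed from negative cells by −0.10, −0.70 and −0.20 in the 3 pairs, a mean of −0.34 ± 0.23.

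Krt19 varied most within the sorts. It was at 6.95, 8.64 and 8.11 in positive cells, 7.09, 9.03 and 7.82 in negative cells and 8.80, 9.02 and 9.01 after CHIRON. Same-numbered sorted arrays stood at like levels, and the highest sorted array, negative replicate 2, exceeded the treated ones. The difference from negative cells was 0.96 ± 0.47 (95% interval −0.06 to 1.99; adjusted p = 0.127) and from positive cells 1.04 ± 0.47 (adjusted p = 0.099). Without negative replicate 2 the first of these was called (1.49, adjusted p = 0.0166). Against positive cells it was called on the 6 arrays compared alone (adjusted p = 0.0459) and without positive replicate 2 (1.41, adjusted p = 0.0426) or negative replicate 2 (1.04, adjusted p = 0.0425).

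Lists of keratin genes, the first of which holds the keratins above, were also counted. Of 7 simple epithelial keratin genes 6 were tested, and 3 rose and 1 fell against negative cells, with a median difference of 0.79 beside −0.01 over all probes. Over all probes 19.5% were called higher and 19.9% lower. The 3 that rose were Krt7, Krt8 and Krt18. Outside the chosen genes only Krt20 and Krt80 were tested, and neither rose. Both were near background, with means in negative cells of 5.42 for Krt20 and 4.63 and 4.66 for the Krt80 probes. The gene that fell was Krt20, a keratin of intestinal epithelium, by 0.76 ± 0.18 (adjusted p = 0.00749; −0.23 without background correction). Against positive cells the same 3 rose and 0 fell (1 fell without positive replicate 2), beside 19.7% of all probes called higher and 20.5% lower. There Krt20 differed by −0.37 (adjusted p = 0.137). Of 17 keratin genes of stratified epithelia only 3 passed the detection filter. Krt10, a keratin of suprabasal epidermis, rose by 0.63 ± 0.18 (adjusted p = 0.0147), which was not called without negative replicate 1 (adjusted p = 0.0527). Krt15, the neighbour of Krt19 on chromosome 11, was detected on 0 treated arrays and was at least 1.36-fold lower there than in negative cells (adjusted p = 0.0133), a call lost with median centring and with the deposited values.

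Among 14 genes for keratin partners and other intermediate filaments 3 rose and 2 fell against negative cells, beside 19.5% and 19.9% of all probes. The count of rises was 0 without negative replicate 1 and 1 without treated replicate 1. Vim, the vimentin of mesenchymal cells, was at 9.79, 10.90 and 10.65 in positive cells, 10.17, 11.23 and 10.75 in negative cells and 11.71, 11.64 and 12.84 after CHIRON. All treated arrays exceeded the sorted ones, treated replicate 3 most of all. Vim rose by 1.35 ± 0.37 (adjusted p = 0.0144; 0.0616 without negative replicate 1), on the same arrays on which Krt8 rose. Des, the desmin of muscle, fell by 2.11 ± 0.28 (adjusted p = 0.000179; −1.32 without background correction). Dsp, the desmoplakin that ties keratin filaments to desmosomes, rose by 0.68 ± 0.21 (adjusted p = 0.0245; 0.26 without background correction), a call lost without negative replicate 1 or 3 or treated replicate 1 or 2, with adjusted p up to 0.0986.

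**Figure D2:**
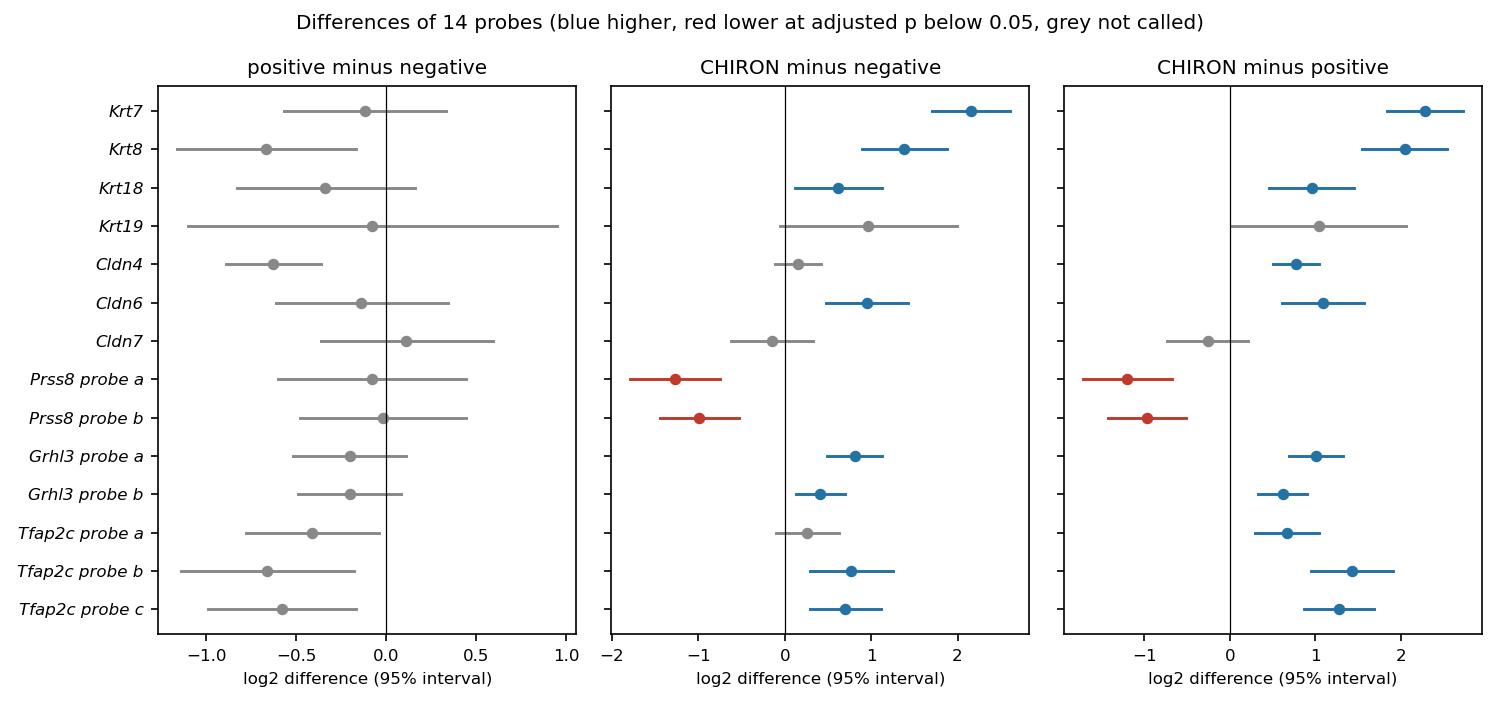
Log2 differences (horizontal axis) of the 14 tested probes in the 3 comparisons, with points for limma's estimate on all 9 arrays and bars for the 95% interval. Blue marks probes called higher, red probes called lower and grey probes not called. All points of the sorts are grey, and Prss8 stands alone in red after CHIRON.

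Of the 3 claudins, Cldn6 was called after CHIRON against both sorts, Cldn4 against positive cells only and Cldn7 against neither. Cldn6, a claudin of embryonic epithelium, was at 10.84, 10.74 and 10.75 in positive cells, 11.08, 11.08 and 10.58 in negative cells and 12.15, 12.11 and 11.33 after CHIRON. The sorts overlapped and all treated arrays lay above them, treated replicate 3 least. Cldn6 rose by 0.95 ± 0.22 over negative cells (1.94-fold, adjusted p = 0.00521) and by 1.09 ± 0.22 over positive cells (adjusted p = 0.00232).

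Cldn4 had its lowest values in positive cells. It was at 7.55, 7.31 and 7.60 in positive cells, 8.17, 8.13 and 8.04 in negative cells and 8.25, 8.28 and 8.26 after CHIRON. All 3 positive arrays lay below all 6 others, and the negative arrays lay just below the treated ones without overlap. Positive cells were lower in 3 of 3 pairs, by −0.62, −0.82 and −0.44, a mean of −0.63 ± 0.12 (95% interval −0.89 to −0.36) in the 9-array fit. It was not called over all probes there or in the paired fit (limma, unadjusted p = 0.000294 and 0.000588), and was in the paired fit of the deposited values (adjusted p = 0.0372). Treated cells exceeded positive cells by 0.78 ± 0.12 (1.71-fold, adjusted p = 0.000488). From negative cells they differed by 0.15 ± 0.12 (95% interval −0.11 to 0.42; adjusted p = 0.354).

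Cldn7 was at 6.31, 5.86 and 6.35 in positive cells, 6.36, 6.14 and 5.68 in negative cells and 6.11, 6.08 and 5.55 after CHIRON. All 3 groups overlapped. It differed by −0.15 ± 0.22 from negative cells (95% interval −0.62 to 0.33; adjusted p = 0.632) and by −0.26 ± 0.22 from positive cells (95% interval −0.73 to 0.21). A rise of the size seen for Cldn6 lies outside both intervals.

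Claudin genes next to these on the chromosome were also measured. Cldn3, next to Cldn4 on chromosome 5, was at 8.81, 7.83 and 8.24 in positive cells, 8.89, 7.88 and 8.20 in negative cells and 6.16, 5.90 and 5.16 after CHIRON. All treated arrays lay below the sorted ones, and Cldn3 fell by 2.58 ± 0.32 (adjusted p = 0.00013) against negative cells. Cldn9, next to Cldn6 on chromosome 17 and named for that place after its values were seen, differed by −0.12 ± 0.13 (adjusted p = 0.526). Of 23 claudin and claudin-like genes on the array 11 were tested, with 3 rises and 2 falls against negative cells, and the median of the 11 was −0.12. Over all probes 19.5% were called higher and 19.9% lower. Beside Cldn6, Cldn10 was at least 1.49-fold higher after CHIRON (adjusted p = 0.000174; a log2 difference of 0.32 without background correction). Cldn23, named after its values were seen, made the third rise, at least 1.23-fold (adjusted p = 0.0414), a call lost without background correction, in the deposited values and without any 1 of 7 arrays. Those were positive replicates 1 and 3, all 3 negative replicates, and treated replicates 1 and 3. The other fall was of Cldn11, a claudin of myelin and Sertoli cells, by 2.24 ± 0.49 (adjusted p = 0.00382). Without background correction Cldn3 differed by −1.57 and Cldn11 by −1.33, still called.

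Of 23 other tight junction and polarity genes tested, 9 fell and 5 rose against negative cells (median −0.35), where 19.9% of all probes were called lower and 19.5% higher. With median centring 6 fell and 5 rose, and without negative replicate 3 the rises numbered 3. Llgl2, a basolateral polarity gene, fell by 1.75 ± 0.13 (adjusted p = 4.12e-06). Tjp3, which encodes the tight junction scaffold ZO-3, was detected on 0 treated arrays by one probe, at least 3.85-fold lower (adjusted p = 1.72e-05), and fell by 1.96 ± 0.23 on the other. Without background correction the first probe differed by −0.88 on the log2 scale, less than that bound, still called. Cgnl1, a junctional cingulin-like gene, rose by 1.50 ± 0.14 (adjusted p = 1.72e-05), or 1.03 without background correction. Of 16 adherens junction and desmosome genes 5 fell and 2 rose (median −0.22), beside the same 19.9% and 19.5% of all probes, among them the plakophilin gene Pkp2, of which all 4 probes fell, by 1.07 to 1.17. These counts depended on single arrays: there were 2 falls and 0 rises without treated replicate 1, and 2 and 1 without negative replicate 1. Falls numbered 3 without positive replicate 1 or 3 or treated replicate 2 and with median centring, and the rises numbered 1 without negative replicate 3 or treated replicate 2.

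Prss8 fell on the arrays on which Krt7 and Krt8 rose, and both of its probes showed it. Probe ILMN_2740965 was at 8.75, 8.53 and 8.50 in positive cells, 8.96, 8.72 and 8.32 in negative cells and 7.62, 7.75 and 6.82 after CHIRON. All treated arrays lay below all sorted arrays, treated replicate 3 lowest. This probe fell by 1.27 ± 0.24 against negative cells (2.42-fold, adjusted p = 0.00155) and by 1.20 ± 0.24 against positive cells (adjusted p = 0.00216).

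The other Prss8 probe (ILMN_2846148) was at 7.95, 7.76 and 7.51 in positive cells, 7.98, 7.83 and 7.47 in negative cells and 7.03, 6.96 and 6.31 after CHIRON. The pattern was the same, with the treated arrays below the sorted ones. It fell by 0.99 ± 0.21 against negative cells (adjusted p = 0.00338) and by 0.97 ± 0.21 against positive cells (adjusted p = 0.00372). Between the sorts the 2 probes differed by −0.08 ± 0.24 and −0.02 ± 0.21.

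Prss8 belongs to a system of membrane serine proteases and their inhibitors, of which 7 of 16 listed genes were tested. Against negative cells 4 fell and 1 rose, with a median of −0.50, and against positive cells 2 fell and 1 rose, Prss8 being among the falls each time. Of all probes 19.9% were called lower and 19.5% higher against negative cells, and 20.5% and 19.7% against positive cells. With median centring 1 fell and 1 rose against negative cells, the fall being that of Prss8, and without negative replicate 1 or treated replicate 1 the falls numbered 2. Spint1, a Kunitz-type inhibitor that restrains these proteases, fell by 0.69 ± 0.17 (adjusted p = 0.00653; 0.0537 with median centring). St14, which encodes matriptase, the protease that acts with prostasin, fell by 0.62 ± 0.19 (adjusted p = 0.0249), a call lost without negative replicate 1 or treated replicate 1 or 2, with adjusted p up to 0.281 over the alternatives.

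Tmprss2, another membrane serine protease, was the gene of that list that rose. It was at 4.56, 4.65 and 4.38 in positive cells, 4.91, 4.91 and 4.24 in negative cells and 9.54, 9.44 and 8.61 after CHIRON. The treated arrays stood far above the sorted arrays, which lay near background. Tmprss2 rose by 4.51 ± 0.25 over negative cells (adjusted p = 3.8e-07), and it was at least 22.2-fold above positive cells, where it was detected on 0 arrays. That bound depends on the background correction, without which the log2 differences were 2.68 and 2.71, still called.

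Grhl3 was near background in both sorts. Its probe ILMN_1222815 was at 4.92, 4.74 and 4.92 in positive cells, 5.28, 4.89 and 5.02 in negative cells and 5.74, 5.80 and 6.08 after CHIRON. All treated arrays exceeded all sorted arrays, and the probe was detected on all 9 arrays. It rose by 0.81 ± 0.15 over negative cells (1.75-fold, adjusted p = 0.00127) and by 1.01 ± 0.15 over positive cells (adjusted p = 0.000294).

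The other Grhl3 probe (ILMN_2971031) was at 4.33, 4.31 and 4.46 in positive cells, 4.69, 4.42 and 4.61 in negative cells and 4.82, 5.00 and 5.13 after CHIRON. It was detected on the 3 treated arrays and on 0 sorted ones, so its fold is a lower bound and it passed the filter through the treated arrays. The bound was at least 1.20-fold against either sort, with adjusted p = 0.0271 against negative and 0.00329 against positive cells. The call against negative cells was lost under 7 of 17 alternatives, among them leaving out negative replicate 2 or 3 or treated replicate 2 or 3. In the sort both Grhl3 probes were lower in positive cells in 3 of 3 pairs, by a mean of −0.20 ± 0.15 for the first and −0.20 ± 0.13 for the second.

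Tfap2c was measured by 3 probes that kept one order of groups. Probe ILMN_2783225 was at 6.84, 6.73 and 7.17 in positive cells, 7.42, 7.44 and 7.87 in negative cells and 8.03, 8.17 and 8.83 after CHIRON. No 2 groups overlapped: positive was lowest, negative between and treated highest. Positive cells were lower in 3 of 3 pairs, by −0.58, −0.72 and −0.70, a mean of −0.66 ± 0.22 in the 9-array fit. It was not called there or in the paired fit (limma, unadjusted p = 0.011 and 0.000187), and was in the paired fit of the deposited values (adjusted p = 0.0264). Treated cells exceeded negative cells by 0.77 ± 0.22 (1.7-fold, adjusted p = 0.0164) and positive cells by 1.43 ± 0.22 (adjusted p = 0.000433). Without negative replicate 1 or 2 the first of these calls was lost (adjusted p = 0.0589 and 0.0521), as it was with no detection filter (adjusted p = 0.0622).

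Tfap2c probe ILMN_2783226 was at 5.95, 5.70 and 6.35 in positive cells, 6.49, 6.57 and 6.68 in negative cells and 7.07, 7.16 and 7.60 after CHIRON. The 3 groups again did not overlap. It differed by −0.58 ± 0.19 in the sort (limma, unadjusted p = 0.00963) and rose by 0.70 ± 0.19 over negative (adjusted p = 0.0121) and by 1.28 ± 0.19 over positive cells (adjusted p = 0.000326).

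Tfap2c probe ILMN_1231632 was at 4.44, 4.60 and 4.45 in positive cells, 4.77, 5.31 and 4.64 in negative cells and 5.11, 5.13 and 5.27 after CHIRON. Positive arrays, of which 0 detected it, lay below the rest, while negative and treated arrays overlapped through negative replicate 2. Treated cells were at least 1.36-fold above positive cells (adjusted p = 0.00828). They differed from negative cells by 0.26 ± 0.17 (adjusted p = 0.242; 0.47 and 0.0224 without negative replicate 2).

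Of 24 listed epithelial transcription and splicing regulators 14 were tested, and 7 rose and 1 fell against negative cells, with a median of 0.56. The rises include Grhl3 and Tfap2c, already given above, and Elf3 (adjusted p = 0.0487), a call lost under 10 alternatives. Beside this and the other counts of this paragraph, 19.5% of all probes were called higher and 19.9% lower. Esrp2, a splicing regulator of epithelial isoforms, rose by 1.51 ± 0.18 on one probe (adjusted p = 9.28e-05) and differed by 0.24 ± 0.14 on the other (adjusted p = 0.215). Rbm47, another epithelial splicing regulator, rose by 2.12 ± 0.30 (adjusted p = 0.000301). The fall was of Grhl2, the close relative of Grhl3, named after its values were seen: it fell by 0.87 ± 0.19 (adjusted p = 0.00393; −0.30 without background correction) and lay lower on all treated arrays than on all sorted ones. Without background correction Esrp2 differed by 0.57 and Rbm47 by 1.30, still called. In the same samples 6 of 13 mesenchymal genes rose and 0 fell (1 fell without treated replicate 3), with Snai1, a repressor of epithelial genes, at 2.63 ± 0.19 (adjusted p = 2.95e-06; 1.42 without background correction) and Fn1, fibronectin, at 2.38 ± 0.28 (adjusted p = 8.59e-05). Of 15 apical trafficking and adhesion genes 5 rose (3 without treated replicate 2) and 4 fell (2 with median centring), with Podxl, the sialomucin of apical membranes, at 2.07 ± 0.19 (adjusted p = 1.77e-05) and the integrin gene Itgb4 at −1.73 ± 0.24 (adjusted p = 0.000222; −1.03 without background correction).

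**Figure D3:**
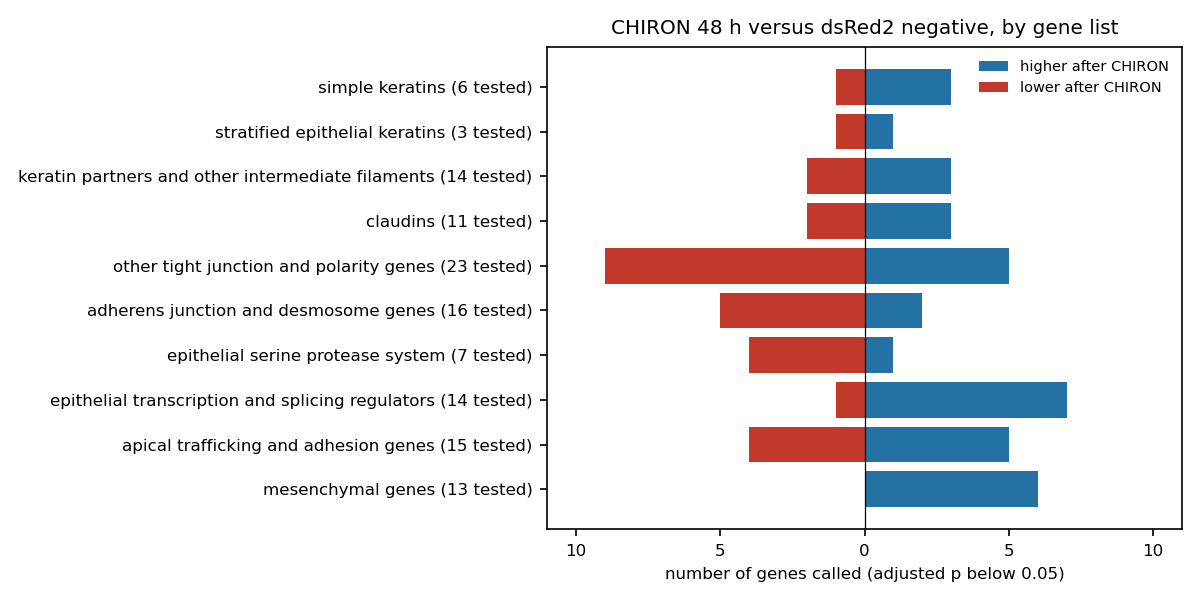
Number of genes called (adjusted p below 0.05, 1 probe per gene) after CHIRON against dsRed2 negative cells in 10 gene lists, with rises to the right in blue and falls to the left in red. The number of genes tested stands beside each list, and the lists share some genes with each other and with the 10 chosen genes. Tight junction and polarity genes show 9 falls and 5 rises, and the transcription and splicing regulators 7 rises and 1 fall.

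Against positive cells 10 of 14 probes were called higher after CHIRON and 2 lower, where 40.1% of all probes were called, 19.7% higher and 20.5% lower. That comparison shares the treated arrays with the one against negative cells. The 10 include Grhl3 probe ILMN_2971031, detected on treated arrays alone, and Tfap2c probe ILMN_1231632, detected on 3 treated, 2 negative and 0 positive arrays. Both passed the filter only with the help of the treated arrays. This count, and those of probes without overlap below, are therefore given as descriptions. By gene, with the brightest passing probe each, 6 of 10 rose and 1 fell against negative cells and 7 rose and 1 fell against positive cells, the added gene being Cldn4. The median difference of the 14 probes was 0.66 against negative and 0.99 against positive cells, beside −0.01 and −0.02 over all probes. Treated and negative arrays did not overlap for 9 probes that were higher and 2 that were lower, and over all probes 25% were higher and 25.4% lower without overlap. Against positive arrays this held for 11 probes that were higher and 2 that were lower, beside 25.6% and 26.9% of all probes. Centring each array on its median in place of quantile normalization shifted the median of all probes by 0.15. It made 69.1% of called probes higher against negative cells, in place of 49.4%, and 65.9% against positive cells, in place of 49.1%. Under that centring 10 and 12 of the 14 probes were still called, and 0 called genes of the lists changed direction under it, without background correction or in the deposited values.

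Summed markers of several other cell types were higher on the treated arrays, while those of fibroblast and feeder cells and of surface ectoderm overlapped with the sorted arrays. Epiblast markers changed as given above. Sums here are of linear signals, neither background-corrected nor normalized, with the brightest probe of each gene on the array, detected or not. Background thus makes up part of every sum, and a ratio of sums is not a fold of expression. The summed signal of 9 germ cell precursor markers, Tfap2c among them, was 991.3 to 1187 on the sorted arrays and 1640 to 2419 on the treated ones, with Kit at a rise of 4.16 ± 0.17. Only 3 of the 9 were tested, and the 2 called higher against negative cells were Kit and Tfap2c. Per array 2 to 4 of the 9 were detected. The summed signal of 16 endoderm markers was 1596 to 1739 on the sorted arrays and 4335 to 5919 on the treated ones, where 13 were detected. For 9 mesoderm markers it was 1059 to 1577 and 4842 to 6883, and for 13 trophoblast markers 1217 to 1382 and 1567 to 2441. Fibroblast and feeder markers, 12 in number, summed to 1777 to 3113 on the sorted arrays and to 2500 to 12170 on the treated ones, with treated replicate 3 highest. Surface ectoderm markers, 8 in number, summed to 774.2 to 881.1 on the sorted arrays and 815.3 to 967.3 on the treated ones, and 1 to 3 of them were detected per array. Against negative cells 10 of 13 tested endoderm and 4 of 7 trophoblast genes rose and 0 fell. Of 5 tested mesoderm genes 4 rose and 1 fell, of 6 fibroblast and feeder genes 2 rose and 1 fell. Of 2 surface ectoderm genes 0 rose and 1 fell. Over all probes 19.5% were called higher and 19.9% lower. The part of such cells in the changes of the keratins, claudins and regulators was not tested. Without treated replicate 3, 12 of the 14 probes were called against positive and 8 against negative cells. Leaving that array out did not test the part of such cells, and fibroblast and feeder markers summed to 3304 and 2500 on treated replicates 1 and 2.

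The sort was also fitted in pairs, because same-numbered positive and negative arrays deviated together. Of the 14 probes 8 were lower and 0 higher in all 3 pairs, where 14.4% of all probes were lower and 15.4% higher. Positive arrays lay wholly below negative arrays for 4 probes, those of Cldn4 and Tfap2c, and wholly above for 0, beside 3.92% and 3.76% of all probes. An unadjusted p below 0.05 was reached by 5 of the 14 probes in the 9-array fit of limma, beside 2.74% of all probes, and by 6 in the paired fit, all lower, beside 8.61% of all probes and 4.79% lower. The paired fit of limma called 0 of the 14, beside 0.021% of all probes, with adjusted p = 0.234 for Tfap2c (ILMN_2783225), 0.26 for Krt8 and 0.267 for Cldn4. An exact test of 3 arrays against 3 cannot give a p below 0.1.

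On the deposited values, an alternative chosen after seeing the data, the paired fit called 3 of the 14 probes lower in positive cells, beside 0.168% of all probes called lower and 0.183% called either way. They were Krt8 at −0.66 (adjusted p = 0.0183), Tfap2c ILMN_2783225 at −0.44 (adjusted p = 0.0264) and Cldn4 at −0.46 (adjusted p = 0.0372). Fibroblast and feeder markers lay on the same side: on the signals normalized here all 10 of their tested probes had the lower mean in positive cells. Their median was −0.61, beside 0.01 over all probes. These probes belong to only 6 genes, with several for Acta2, and the paired fit called 0 of them. Their summed linear signal, not normalized and with background included, was 1777 to 2033 in positive and 1884 to 3113 in negative cells. Whether such cells have a part in the lower Krt8, Cldn4 and Tfap2c of positive cells was not tested.

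**Figure D4:**
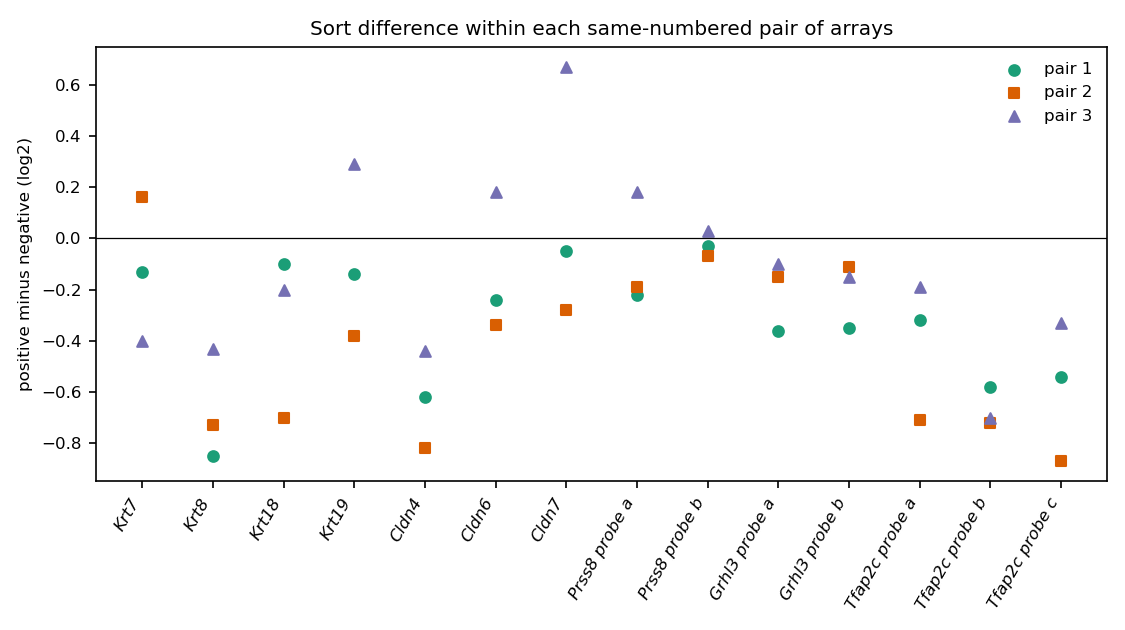
Positive minus negative log2 difference (vertical axis) within same-numbered pairs 1, 2 and 3 for each tested probe, with letters a, b and c giving the probes of a gene in the order of their probe numbers. Krt8, Cldn4 and the Tfap2c probes lie below 0 in all 3 pairs, while Krt7, Krt19, Cldn6, Cldn7 and Prss8 lie on both sides of 0.

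Probes of other genes with the nearest profiles were found by the root mean square distance over the 9 arrays, after each profile was centred on its own mean. Krt8 lay nearest to Lgals3bp (0.18) and Ifitm1 (0.19), Krt7 to Mogat2 (0.17) and Foxc1 (0.18), and Krt18 to Grpel1 (0.15) and Cotl1 (0.16). For Krt19 they were Gbp2 (0.27) and Wdr4 (0.30), the widest distances among the 10 genes. Cldn4 lay nearest to Lrrc4 (0.14) and Gipc2 (0.15), Cldn6 to Gli2 and Vti1a (both 0.15), and Cldn7 to Rps6ka5 (0.088) and Sema6b (0.12). Prss8 was closest to Smtnl2 (0.11) and Mlxipl (0.12), Grhl3 to Vps33a (0.067) and Cacfd1 (0.093), and Tfap2c to Sh3glb1 (0.17) and Rcan1 (0.19). None of these 20 nearest probes was of a gene among the 10.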

How the data were processed

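RNA of 9 samples was hybridised to Illumina bead arrays in 1 colour. The signal intensity, as deposited and per the file headers, is linear and not normalized, and each comes with a deposited detection p-value. A second table of deposited log2 values had been normalized with lumi, as named in the submitters' processing notes without version or settings. Their column medians were 6.09 to 6.10, and slopes on the log2 signal were 0.986 to 1.08.

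Signals were corrected with normexp from the detection p-values (offset 16), quantile-normalized and log2-transformed (neqc, limma 3.58.1, R 4.3.3). The detection filter kept 19074 probes. Symbols were updated through RefSeq synonyms: of 30869, 16219 were current, 5710 updated and 8940 kept. The model was lmFit and eBayes with group as the only term on all 9 arrays, two-sided, with Benjamini-Hochberg adjustment over all probes. It was tested on simulated data. List counts take the brightest passing probe of a gene. Beside the members, the up to 4 genes of smallest p per list and comparison, and the 2 nearest profiles per member, were to be named. Where every array of the dimmer group failed detection, the fold is a lower bound: each dim array counts with its lowest detected signal, or with the probe's own where that is higher, and their mean is set against the brighter mean. Deviations of same-numbered positive and negative arrays from their group means correlated across probes (r = 0.50, 0.56 and 0.33), so the pairing comes from the data; with treated arrays r was −0.13 to 0.09. The members and gene lists were chosen with earlier results of these data known. Promoter windows are from RefSeq, GRCm38.p6.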

Additional observations from a re-analysis of the deposited data

How the results depend on the processing

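Of 839 values of single probes under the alternatives, 790 kept their direction and side of the threshold, 21 lost the call, 12 gained one and 16 changed sign. None of those 16 was called. Against negative cells Cldn7 differed by 0.09 with median centring, 0.01 without negative replicate 1 and 0.04 without treated replicate 3, in a range of −0.34 to 0.04 as single arrays were left out. In the sort Krt19 differed by 0.40 without positive replicate 1, 0.45 without negative replicate 2 and 0.08 with the replicate block and without pair 2. There Cldn7 differed by −0.08 without negative replicate 3, and Krt7 by 0.11, and with the block and without pair 3 they differed by −0.16 and 0.02. Prss8 (ILMN_2740965) differed by 0.07 without negative replicate 1. As single arrays were left out, the sort differences ranged up to 0.27 for Cldn7 and down to −0.52 for Krt19, −0.27 for Krt7 and −0.25 for Prss8 (ILMN_2740965). Prss8 (ILMN_2846148) differed by 0.02 with median centring, 0.09 without positive replicate 3, 0.09 without negative replicate 1, 0.01 without negative replicate 2 and 0.00 with the block and without pair 2. The cause was not tested.

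In the sort limma called 0 probes in the 9-array fit (522 at an unadjusted p below 0.05) and 0 with the replicate block on all 9 arrays. With the replicate block on the 6 sorted arrays it called 4, all lower, and 1 to 5 when a pair was left out. With the block on the deposited values it called 35, of which 3 were among the 14 probes in place of 0. Against negative cells 6 of 10 probes were called in place of 10 of 14 when 1 probe per gene was tested, where fewer probes entered. Without 1 array at a time 6081 to 7383 probes were called against negative cells, 8 to 10 of the 14, and 6160 to 7728 against positive cells, 12 to 13 of the 14. The replicate block on 6 arrays called 6291 and 7222, and averaging treated replicates 1 and 2 called 6304 and 6606. The treated arrays were not paired by number. With the block on 6 or on 9 arrays Krt19 was called against negative (adjusted p = 0.0477 and 0.0227) and positive cells (0.0131 and 0.0158), and on 6 arrays Grhl3 (ILMN_2971031) lost its call against negative cells (adjusted p = 0.0839). On the signals normalized here the block changed no other call of the 14 probes.

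Depth could not be read from arrays. Probes near background, the second Grhl3 probe, Tfap2c probe ILMN_1231632 and the sorted levels of Tmprss2, have sizes that rest on signals close to the lowest detected one. Single arrays decided the calls of Krt18, Krt19, the second Grhl3 probe and Tfap2c probes ILMN_2783225 and ILMN_1231632 against negative cells, and of Krt19 against positive cells. Without background correction Grhl3 (ILMN_1222815) differed by 0.29 from negative and 0.35 from positive cells, Tfap2c (ILMN_2783226) by 0.42 and 0.70 and Prss8 (ILMN_2846148) by −0.64 and −0.62, all still called. Counts of gene lists under other settings were added after the data had been seen. The probe sequences were not analysed here, so probes that share targets could not be checked.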
